A study of Bos taurus with 9 samples.

Results

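The antioxidant enzymes described here were 10 genes chosen by symbol from the 28786 genes counted in cow liver: the superoxide dismutases *SOD1*, *SOD2* and *SOD3*, catalase (*CAT*), the glutathione peroxidases *GPX1*, *GPX3* and *GPX4*, and the peroxiredoxins *PRDX3*, *PRDX5* and *PRDX6*. Liver biopsies were taken from 9 lactating Holstein cows and sequenced as polyA-selected RNA, with 1 library per cow and 3 cows in each of 3 groups. The HS group was housed under heat stress, the TN group was kept at thermoneutrality, and the PF group was also kept at thermoneutrality but was given as much feed as the heat-stressed cows ate. Per the study's methods, all cows had first been acclimated at thermoneutrality, and the average days in milk differed between the groups, lowest in TN and highest in PF. HS against TN therefore compares heat together with the lower feed intake that comes with it, PF against TN compares restricted feed without heat, and HS against PF compares heat at matched feed. The age of the cows was not given in the sources used here.

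Superoxide dismutases turn the superoxide radical, which leaks from mitochondrial respiration and is made by oxidases, into hydrogen peroxide and oxygen. Catalase in peroxisomes then breaks hydrogen peroxide down directly, while glutathione peroxidases reduce peroxides with glutathione and peroxiredoxins reduce them with a reactive cysteine that is mostly recharged by thioredoxin. The liver is rich in peroxisomes and mitochondria and expresses most of these enzymes strongly.

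Levels are given as CPM, the counts of a gene scaled to library size with edgeR's trimmed mean of M values (TMM), and each mean is given ± SD with n = 3 cows. Since CPM is not divided by transcript length, levels are compared between cows and not between genes. A differentially expressed gene (DEG) had a fold change (FC) over 1.5 and a false discovery rate (FDR) under 0.1, from edgeR's quasi-likelihood test after adjusting the p-values by the Benjamini-Hochberg method over every gene in the fit. All 10 enzymes passed the filter on low counts in every comparison.

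Library totals ranged from 16874444 to 22557047 counts, and the enzymes took 0.570% to 0.882% of the counts of a library. The library of TN cow 1 stood apart. The summed level of 8 hepatocyte markers (*ALB*, *APOA1*, *APOB*, *TTR*, *TF*, *CPS1*, *FGB* and *SERPINA1*) was 17276 CPM in TN cow 1, against 59924 to 129003 CPM in the other 8 cows, with the highest sum in HS cow 3. *APOA1* and *APOB* did not follow this drop. In TN cow 1 *APOA1* was at 841 CPM, above TN cow 2 (276 CPM) and HS cow 3 (350 CPM). *APOB* was at 973 CPM there, against 589 to 1266 CPM in the other cows. The other listed markers were each lowest in TN cow 1. The TMM factor was 1.33 in TN cow 1 and 1.202 in HS cow 1, and 0.869 to 1.01 in the other cows. The same cows sat at the ends of many enzyme profiles: TN cow 1 was the lowest of the 9 cows for 6 of the 10 enzymes, and HS cow 3 was the highest for 6. The part that these libraries play in the results was not tested beyond leaving each out. The mitochondrially encoded subunits took 13.6% to 22.2% of the counts in TN, 6.90% to 7.79% in PF and 3.84% to 5.68% in HS cows. In bulk tissue, fewer cells of a type and less RNA per cell cannot be told apart.

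**Figure D1:**
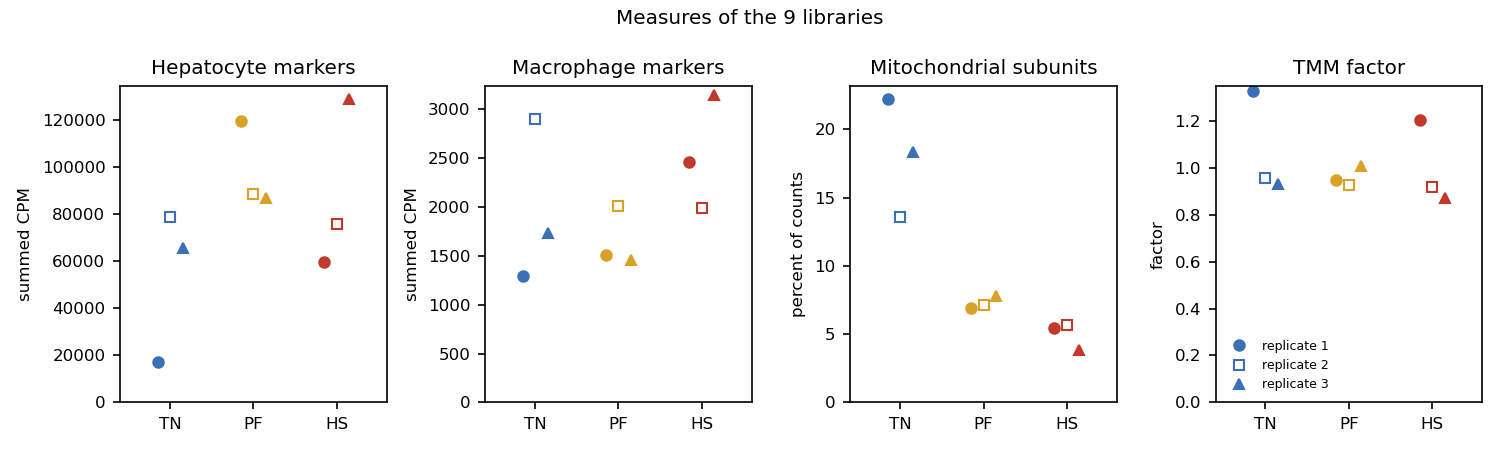
Measures of the 9 libraries by group, 1 point per cow with the symbol giving the replicate: summed CPM of hepatocyte markers, summed CPM of macrophage markers, percent of counts on mitochondrially encoded subunits, and the TMM factor (no unit). TN cow 1 has the lowest hepatocyte sum (17276 CPM) and the highest TMM factor (1.33), and the mitochondrial share does not overlap between the 3 groups.

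No enzyme was a DEG in any pair of groups by edgeR, and DESeq2 called only *SOD3*, lower in PF than in TN. The clearest patterns were those of the secreted enzymes *GPX3* and *SOD3*, which varied far more between cows than most genes, and of *PRDX5* and *PRDX6*, which were higher in both the HS and the PF cows than in the TN cows. In a test of all 3 groups together, 0 of the 10 enzymes had an FDR under 0.1 by edgeR, against 0.0464% of the 15073 genes tested, and 0 by DESeq2, against 1.89%. By edgeR, 3 enzymes had an unadjusted p under 0.05, as had 7.86% of all genes. They were *GPX3* (FDR = 0.366 by edgeR, unadjusted p = 0.00405), *SOD3* (FDR = 0.405, unadjusted p = 0.0052) and *PRDX5* (FDR = 0.589, unadjusted p = 0.0304). Without a filter on low counts, 2 enzymes, *GPX3* and *SOD3*, passed this test, as did 212 of 21008 genes, against 7 with the filter.

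**Figure D2:**
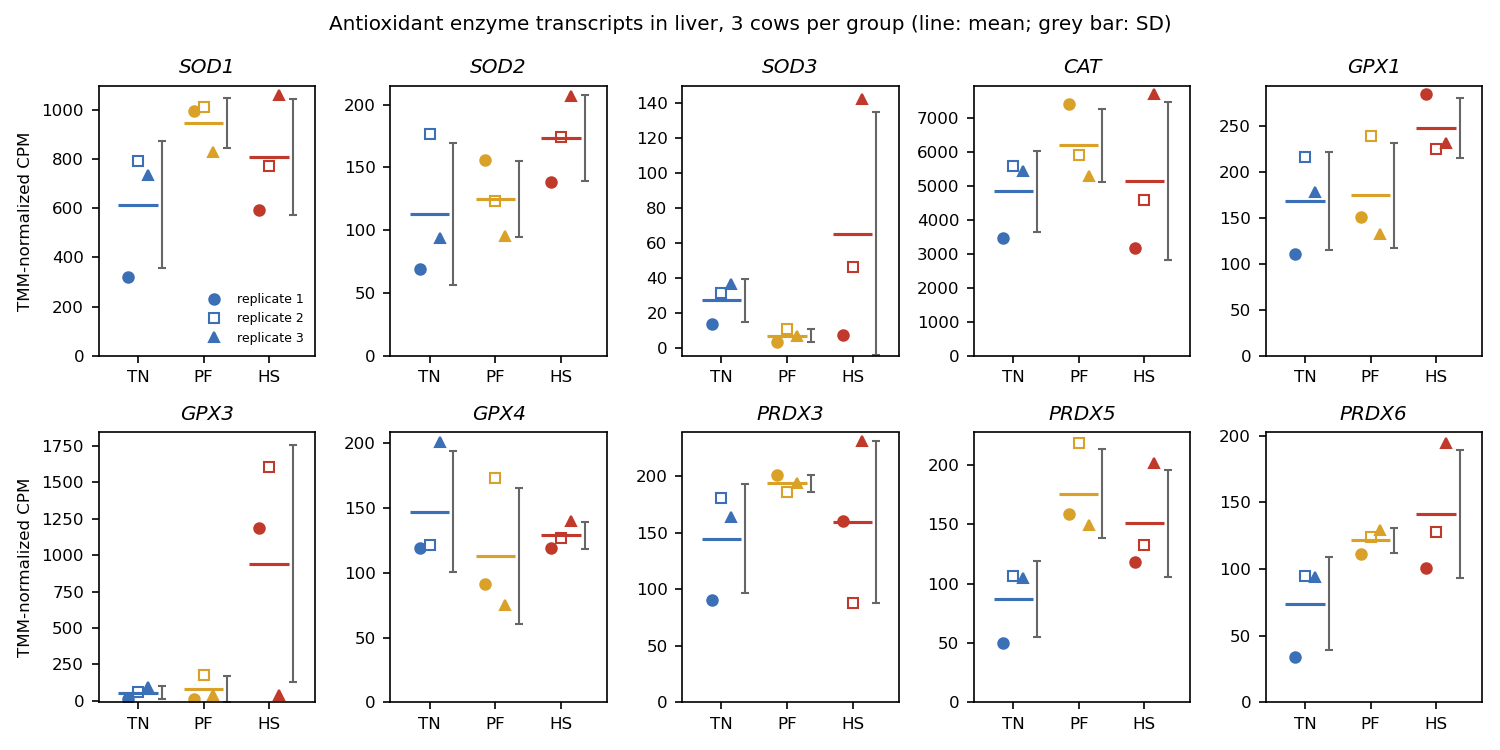
TMM-normalized CPM of the 10 enzymes in the TN, PF and HS groups, 1 point per cow (symbol: replicate), with the group mean as a line and the SD as a grey bar. Each axis starts at 0, except those of *GPX3* and *SOD3*, which start below 0 because an SD bar reaches below it. *GPX3* is at 1183 and 1606 CPM in 2 HS cows and at 181 CPM or less in the other 7 cows, and *SOD3* is at 10.7 CPM or less in all PF cows.

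*SOD1* encodes the copper and zinc enzyme of the cytosol. Its level was 319, 792 and 734 CPM in the TN cows, 997, 1013 and 828 CPM in the PF cows, and 593, 773 and 1059.5 CPM in the HS cows. All PF cows lay above all TN cows, while the HS cows covered a range that reached into both other groups. The mean was 615 ± 258 CPM in TN, 946 ± 103 CPM in PF and 809 ± 235 CPM in HS. For PF against TN the log2 FC was 0.62 (SE 0.40, FDR = 0.722 by edgeR).

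*SOD2* encodes the manganese enzyme of the mitochondrial matrix. It was at 69.0, 177 and 93.8 CPM in TN, 156, 123 and 95.3 CPM in PF, and 138, 174 and 207 CPM in HS cows. TN cow 2 sat inside the HS range, so the groups overlapped even though the HS mean, 173 ± 34.2 CPM, was above the TN mean of 113 ± 56.4 CPM and the PF mean of 125 ± 30.4 CPM. The log2 FC was 0.60 (SE 0.36, FDR = 0.595 by edgeR) for HS against TN and 0.47 (SE 0.27, FDR = 1.00) for HS against PF.

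*SOD3* encodes the extracellular dismutase, which is secreted and binds to the matrix around cells. It was at 13.5, 31.6 and 36.5 CPM in TN, 3.67, 10.7 and 7.13 CPM in PF, and 7.34, 46.6 and 142 CPM in HS cows. Every PF cow was below every TN cow, and the HS cows were spread from within the PF range to far above the TN range. Its SD within groups on the log2 scale, 1.36, was larger than that of 99.4% of the genes tested. The log2 FC of PF against TN was -1.93 (SE 0.44, 95% interval -2.88 to -0.97), with an unadjusted p of 0.000965 and an FDR of 0.523 by edgeR. By DESeq2 the same difference had an FDR of 0.0103, which made *SOD3* a DEG by that tool. Over the 13 other settings tried, the FDR ranged from 0.00157 without a filter on low counts to 0.88 without PF cow 1, and the log2 FC stayed between -2.33 and -1.61.

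For HS against PF, the log2 FC of *SOD3* was 3.18 (SE 0.81, 95% interval 1.40 to 4.96, FDR = 0.408 by edgeR), and for HS against TN it was 1.26 (SE 0.79, FDR = 0.612). Both values rested in large part on HS cow 3. Without it the log2 FC was 1.91 against PF and -0.03 against TN. Without HS cow 1, the HS cow lowest in *SOD3*, the difference from PF reached 3.70 with an FDR of 0.0643 by edgeR, and without a filter on low counts it had an FDR of 0.00156. Over all 13 settings the FDR against PF ran from 0.00156 to 1.00.

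*CAT* encodes the peroxisomal enzyme that splits hydrogen peroxide into water and oxygen. It was at 3482, 5599 and 5448 CPM in TN, 7405, 5904 and 5304 CPM in PF, and 3169, 4601 and 7707 CPM in HS cows. The 3 HS cows held both the lowest and the highest value of the 9, and no pair of groups was free of overlap. The means were 4843 ± 1181 CPM in TN, 6205 ± 1082 CPM in PF and 5159 ± 2319.8 CPM in HS. HS differed from TN by a log2 FC of 0.08, with a 95% interval of -1.09 to 1.25, an interval that holds a change of 1 log2 unit in either direction.

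*GPX1* encodes the glutathione peroxidase of the cytosol and mitochondria, a selenoprotein. It was at 111, 216 and 178 CPM in TN, 152, 240.2 and 133 CPM in PF, and 285, 226 and 232 CPM in HS cows. All HS cows lay above all TN cows, but narrowly, and PF cow 2 was inside the HS range. The log2 FC of HS was 0.55 against TN (SE 0.31, FDR = 0.585 by edgeR) and 0.50 against PF (SE 0.29, FDR = 0.991). As CPM of the library total, without TMM scaling, the HS and TN cows overlapped, with 202 CPM in HS cow 3 and 207 CPM in TN cow 2.

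*GPX3* encodes the secreted glutathione peroxidase of plasma. It was at 11.0, 61.2 and 97.1 CPM in TN, 16.0, 181 and 40.4 CPM in PF, and 1183, 1606 and 37.7 CPM in HS cows. HS cows 1 and 2 were far above every other cow, while HS cow 3 lay within the range of the TN and of the PF cows. The highest level was 146 times the lowest, and the SD within groups on the log2 scale, 2.21, was larger than that of 99.9% of the genes tested. The mean was 56.4 ± 43.2 CPM in TN, 79.0 ± 88.9 CPM in PF and 942 ± 811 CPM in HS.

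The log2 FC of *GPX3* was 4.05 for HS against TN (SE 1.18, 95% interval 1.42 to 6.69, unadjusted p = 0.00668, FDR = 0.392 by edgeR) and 3.58 for HS against PF (SE 1.13, 95% interval 1.08 to 6.07, FDR = 0.654). Neither passed the threshold, and DESeq2 gave FDRs of 0.133 and 0.51. Without HS cow 3 the log2 FC was 4.62 against TN (FDR = 0.179 by edgeR) and 4.14 against PF (FDR = 0.223). Without a filter on low counts the FDRs were 0.069 and 0.0161, both under 0.1. Over all 13 settings the FDR against TN ran from 0.069 to 0.676 and that against PF from 0.0161 to 1.00, and the log2 FC was at least 3.43 against TN and 2.95 against PF. For PF against TN the log2 FC was 0.49, and it was -0.998 without PF cow 2.

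*GPX4* encodes the peroxidase that acts on lipid peroxides in membranes. It was at 119, 121 and 201 CPM in TN, 91.4, 173 and 75.1 CPM in PF, and 119, 126 and 140.1 CPM in HS cows. All 3 groups overlapped, and the HS cows were the most alike. Its log2 FC was -0.21 for HS against TN (95% interval -0.85 to 0.43) and -0.38 for PF against TN (95% interval -1.20 to 0.44). It was the only one of the 10 enzymes with a log2 FC below 0 for HS against TN, and this sign turned, to 0.08, without TN cow 3.

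*PRDX3* encodes the peroxiredoxin of the mitochondrial matrix. It was at 90.2, 180.2 and 164 CPM in TN, 201, 186 and 194 CPM in PF, and 161, 87.5 and 231 CPM in HS cows. The PF cows were close together and all above the TN cows, whereas the HS cows ranged from below the lowest TN cow to above the highest PF cow. For PF against TN the log2 FC was 0.42 (SE 0.33, FDR = 0.753 by edgeR).

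*PRDX5* encodes a peroxiredoxin found in mitochondria, peroxisomes and the cytosol. It was at 50.1, 107 and 105 CPM in TN, 159, 219 and 149.6 CPM in PF, and 118, 132 and 202 CPM in HS cows. Every PF cow and every HS cow was above the highest TN cow, and the PF and HS cows overlapped. The log2 FC against TN was 1.01 in PF (SE 0.35, 95% interval 0.24 to 1.78, unadjusted p = 0.0144, FDR = 0.697 by edgeR) and 0.78 in HS (SE 0.35, unadjusted p = 0.0501, FDR = 0.522). Without TN cow 1, the lowest TN cow, these were 0.74 and 0.51.

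*PRDX6* encodes a peroxiredoxin that acts on phospholipid peroxides and is recharged by glutathione. It was at 34.0, 94.4 and 93.8 CPM in TN, 111, 124 and 129 CPM in PF, and 101, 128 and 194 CPM in HS cows. As for *PRDX5*, all PF and HS cows were above all TN cows, and TN cow 1 was far below the other TN cows. The log2 FC of HS against TN was 0.92 (SE 0.41, 95% interval 0.01 to 1.83, unadjusted p = 0.0485, FDR = 0.522 by edgeR), and it was 0.58 without TN cow 1 and 0.62 without HS cow 3. For PF against TN it was 0.71 (SE 0.37, FDR = 0.709), and 0.37 without TN cow 1. *PRDX6* overlaps 2 other genes, *AADACL3* and *SLC9C2*, in RefSeq's gene models of ARS-UCD2.0, and neither had more than 77 counts in any library.

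**Figure D3:**
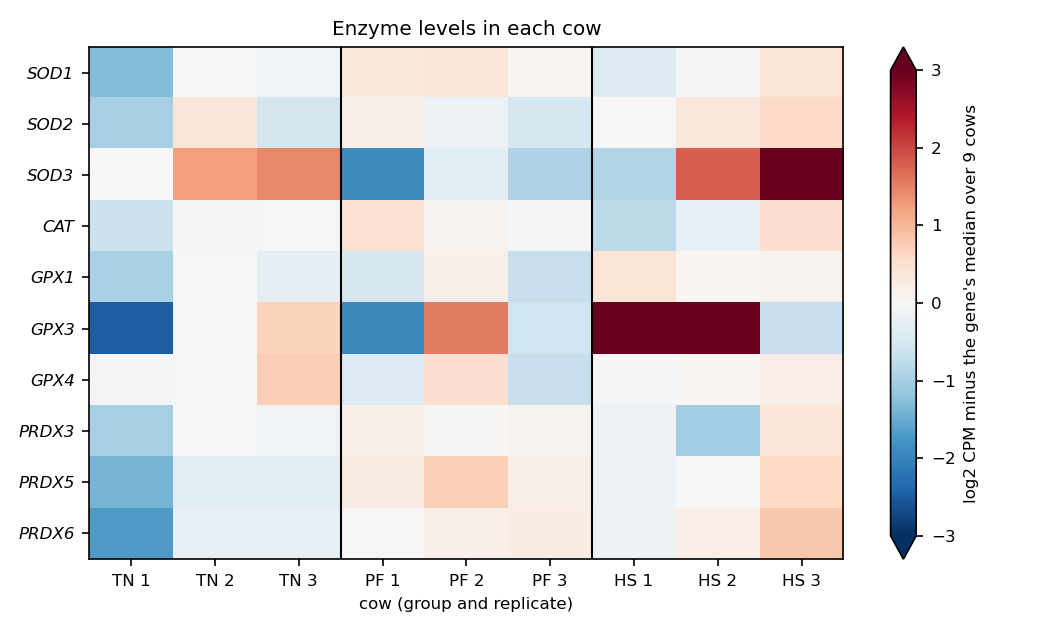
Level of each of the 10 enzymes in each of the 9 cows, as log2 CPM minus the median of that gene over the cows (colour scale in log2 units). TN cow 1 is the lowest cow for 6 enzymes, and HS cow 3 is the highest for 6. *GPX3* is highest in HS cows 1 and 2 (1183 and 1606 CPM) and lowest in TN cow 1 and PF cow 1 (11.0 and 16.0 CPM).

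Taking the 10 enzymes side by side, 0 were DEGs for HS against TN by edgeR, where 0.0892% of the 14582 genes tested were DEGs, and 0 by DESeq2, where 1.75% were. An unadjusted p under 0.05 was reached by 2 enzymes, *GPX3* and *PRDX6*, both higher in HS, against 4.13% of all genes in that direction. The log2 FC was above 0 for 9 of 10, the FC was over 1.5 for 5 of 10 (9.89% of all genes), and the median was 0.57, while the median of all genes was -0.01. In 3 of 10, *GPX1*, *PRDX5* and *PRDX6*, all HS cows were above all TN cows, as they were in 8.37% of all genes. TN cow 1 and HS cow 3 moved these numbers: the median was 0.34 without TN cow 1 and 0.30 without HS cow 3, the number above 0 was 7 and 6, and the number with an FC over 1.5 was 2 and 3. Without TN cow 2, in contrast, the median was 0.86, and 7 had an FC over 1.5. The share of all genes with an FC over 1.5, higher in HS, moved too. It was 9.31% without TN cow 1, 10% without HS cow 3 and 16.3% without TN cow 2.

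For HS against PF, 0 of the 10 enzymes were DEGs by edgeR (0.0276% of the 14510 genes tested) and 0 by DESeq2 (0.771%). *SOD3* and *GPX3* had an unadjusted p under 0.05, both higher in HS, against 3.07% of all genes. The log2 FC was above 0 for 6 and below 0 for 4, and no enzyme was free of overlap, against 10.5% of all genes. The median was 0.20, and it ranged from 0.02 without HS cow 3 to 0.35 without PF cow 2. Without HS cow 3, 1 enzyme was higher and 4 were lower in HS without overlap, as were 10.9% and 9.71% of all genes, and without PF cow 2, 3 were higher, as were 11.2% of all genes. As CPM of the library total, *SOD2* was higher in all HS cows than in all PF cows. For the 4 enzymes below 0 (*SOD1*, *CAT*, *PRDX3* and *PRDX5*), the log2 FC lay between -0.28 and -0.23, and each 95% interval contained 0.

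For PF against TN, edgeR found 0 DEGs among the 10 enzymes and 0% among the 14580 genes tested, and DESeq2 found 1, *SOD3*, lower in PF, against 0.555% of all genes. An unadjusted p under 0.05 was reached by *PRDX5*, higher in PF (2.99% of all genes), and by *SOD3*, lower in PF (3.89%). The log2 FC was above 0 for 8 of 10, with a median of 0.39. All PF cows were above all TN cows in 4 enzymes, *SOD1*, *PRDX3*, *PRDX5* and *PRDX6*, as in 6.81% of all genes, and below them in *SOD3*, as in 6.37%. The same 5 enzymes had no overlap as CPM of the library total. Without TN cow 1 the median was 0.09 and the number above 0 was 6, and without TN cow 2 they were 0.58 and 8. The comparisons of HS and of PF with TN share the 3 TN cows, so that a low or high TN cow enters both.

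**Figure D4:**
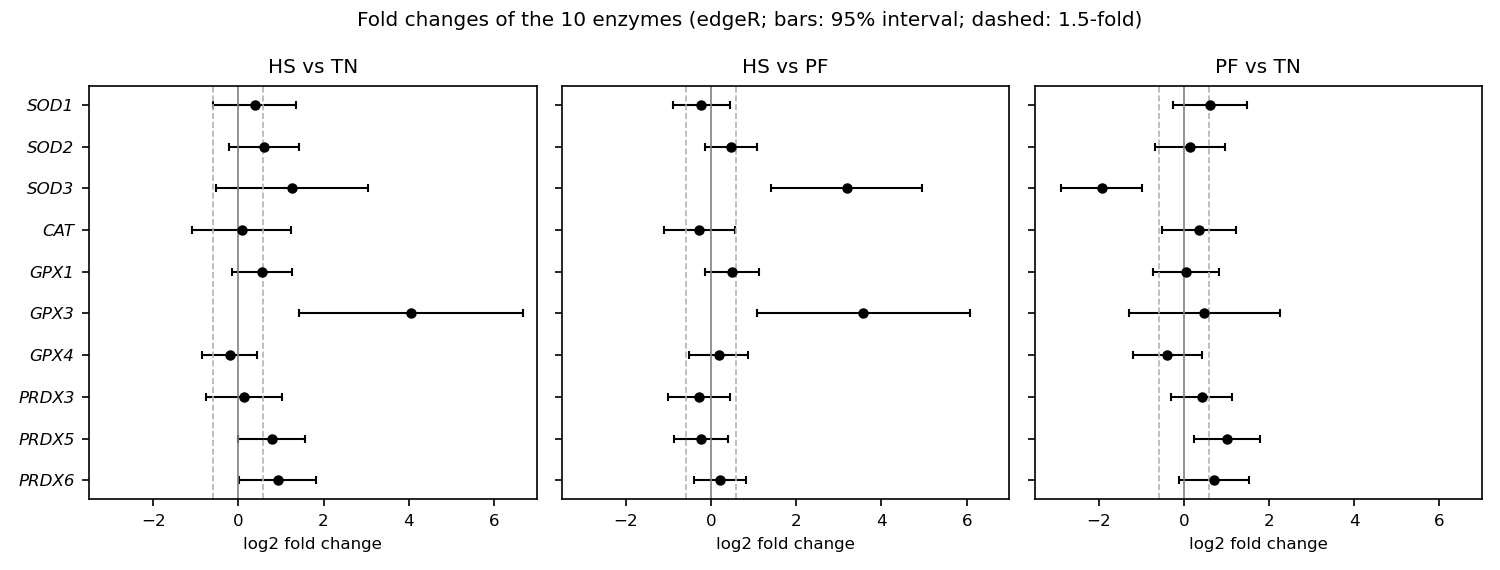
Log2 fold change of the 10 enzymes for HS against TN, HS against PF and PF against TN (edgeR; bars give the 95% interval, dashed lines mark a 1.5-fold change in either direction). Only *GPX3* and *PRDX6* for HS against TN, *SOD3* and *GPX3* for HS against PF, and *SOD3* and *PRDX5* for PF against TN have intervals that leave out 0.

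The balance between enzymes was compared as a log2 ratio of CPM within a cow, which does not depend on library scaling. The ratio of the mitochondrial *PRDX3* to the cytosolic *PRDX6* was 1.41, 0.93 and 0.80 in TN, 0.85, 0.58 and 0.59 in PF, and 0.67, -0.55 and 0.25 in HS cows. It was highest in the TN and lowest in the HS group, with means of 1.05 ± 0.32, 0.67 ± 0.15 and 0.12 ± 0.62 for TN, PF and HS. An exact permutation test that took all 280 partitions of the cows into groups of 3 gave p = 0.0357, which was 0.102 after Benjamini-Hochberg adjustment over the 3 ratios tested. The ratio of the mitochondrial *SOD2* to the cytosolic *SOD1* had means of -2.45 ± 0.45, -2.94 ± 0.24 and -2.20 ± 0.14 in TN, PF and HS (exact permutation p = 0.0679, adjusted 0.102), and in each HS cow it was above each PF cow. The ratio of *CAT* to *GPX1* had means of 4.87 ± 0.15, 5.18 ± 0.51 and 4.29 ± 0.79 (exact permutation p = 0.221, adjusted 0.221). The smallest p this test can give is 0.00357.

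The genes with the profile most like an enzyme's were sought among 8465 genes with a mean of at least 10 CPM, for the 4 enzymes with the smallest p in the test of 3 groups. Likeness was the root mean square difference of the centred log2 CPM over the 9 cows. For *PRDX5*, *MRPS18B*, a protein of the mitochondrial ribosome, was among the nearest (0.14), against a spread of 0.59 for *PRDX5* itself. For *PRDX6*, with a spread of 0.64, they were *PPIB*, a prolyl isomerase of the endoplasmic reticulum (0.13), and *URAD*, an enzyme of urate breakdown (0.13). No gene followed *GPX3* closely: the nearest were *LOC107133343* (1.18) and *SAA2* (1.26), a serum amyloid A gene, against a spread of 2.36. *SAA2* was at 9425 CPM in HS cow 2 but at 1097 CPM in HS cow 1, below the 1533 CPM of TN cow 3, and its reads may be shared with near-identical family members. For *SOD3*, with a spread of 1.51, the nearest were *CD22*, a surface receptor of B cells (0.78), and *ACMSD*, an enzyme of tryptophan breakdown (0.90).

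Other genes of the same families and of the pathways that feed these enzymes were read from 10 lists, and edgeR called 0 of their genes in each of the 3 pairs. Among the other family members, 6 were tested for HS against TN and 0 had an unadjusted p under 0.05 or passed by DESeq2. The smallest p-values were those of *GPX7* (log2 FC 0.92, SE 0.46) and *GPX8* (log2 FC -0.71, SE 0.40), which are peroxidases of the endoplasmic reticulum. The cytosolic *PRDX1* (log2 FC 0.28) and *PRDX2* (log2 FC -0.28), named here after their values were seen, had 95% intervals that included 0.

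For PF, 3 of 7 other family members had an unadjusted p under 0.05 against TN, all higher in PF (2.99% of all genes), and the same number had one against HS, all lower in HS (2.25% of all genes; both comparisons use the same PF cows). Named after their values were seen, they included *CCS*, the chaperone that loads copper into *SOD1*, which was at 111 ± 34.0 CPM in PF, 65.7 ± 16.7 CPM in TN and 62.0 ± 6.09 CPM in HS cows. Its log2 FC was 0.75 for PF against TN (SE 0.32, FDR = 0.708 by edgeR) and -0.84 for HS against PF (SE 0.26, FDR = 0.641), with no overlap in either pair. Of all genes, 6.81% were higher in all PF than in all TN cows, and 4.58% were lower in all HS than in all PF cows. *GPX2*, an intestinal type of glutathione peroxidase, was low in all groups. It was at 0.358, 1.42 and 0.119 CPM in TN, 3.73, 2.46 and 1.32 CPM in PF, and 0.295, 0.467 and 0.202 CPM in HS cows. The value of HS cow 3 stands for 3 counts, and TN cow 2 was above PF cow 3, so the difference rests on few reads. *GPX2* was the only gene of this list that DESeq2 called for HS against PF (log2 FC -2.93 and FDR = 0.315 by edgeR, FDR = 0.0142 by DESeq2).

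Of the 14 genes of the thioredoxin and glutaredoxin system, which recharges peroxiredoxins, 1 had an unadjusted p under 0.05 for HS against TN, higher in HS (4.13% of all genes), and 0 were called by DESeq2. It was *TXN2*, the mitochondrial thioredoxin, at 35.7 ± 8.06 CPM in TN, 52.6 ± 2.22 CPM in PF and 59.8 ± 17.8 CPM in HS cows (log2 FC 0.73 for HS against TN, SE 0.27, FDR = 0.473 by edgeR). All HS cows were above all TN cows in *TXN2*, as in 8.37% of all genes. *TXNRD3*, a thioredoxin reductase, had a log2 FC of -0.44 (SE 0.30). *SESN2*, a stress-responsive sestrin named after its values were seen, was lowest in PF, with 5.51 ± 0.69 CPM against 9.60 ± 1.31 CPM in TN and 9.47 ± 1.39 CPM in HS cows (log2 FC -0.80 for PF against TN, SE 0.30, FDR = 0.705 by edgeR).

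In glutathione synthesis and recycling, 8 genes were tested. *GGT1*, which breaks glutathione down outside the cell, was at 79.6 ± 20.5 CPM in TN, 69.3 ± 9.41 CPM in PF and 135 ± 24.7 CPM in HS cows. All HS cows were above all TN and all PF cows, as in 8.37% and 5.95% of all genes. The log2 FC was 0.74 against TN (SE 0.28, FDR = 0.487 by edgeR) and 0.96 against PF (SE 0.25, FDR = 0.42 by edgeR and 0.0436 by DESeq2). *OPLAH*, which returns oxoproline to glutamate, had a log2 FC of -0.58 for HS against TN (SE 0.26, FDR = 0.522 by edgeR). The glutathione reductase *GSR*, named after its values were seen, was at 52.7 ± 3.56, 53.3 ± 8.57 and 63.0 ± 20.4 CPM in TN, PF and HS, with an FDR of at least 0.77 in each pair.

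Both glutathione and thioredoxin are kept reduced with NADPH. Of 8 genes for its supply, *TKT* and *TALDO1*, enzymes of the pentose phosphate pathway, had log2 FCs of -0.90 (SE 0.38, FDR = 0.512 by edgeR) and 0.41 (SE 0.31, FDR = 0.652) for HS against TN. *IDH1*, the isocitrate dehydrogenase of the cytosol and peroxisomes, was named after its values were seen. It was at 288 ± 31.5 CPM in PF, above every TN cow (118 ± 43.7 CPM) and every HS cow (144 ± 27.2 CPM). Of all genes, 6.81% were higher in all PF than in all TN cows, and 4.58% were lower in all HS than in all PF cows. The log2 FC was 1.28 for PF against TN (SE 0.35, FDR = 0.647 by edgeR and 0.0214 by DESeq2) and -1.01 for HS against PF (SE 0.26, FDR = 0.408 by edgeR and 0.0143 by DESeq2).

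*GPX1*, *GPX3* and *GPX4* hold selenocysteine, and 8 genes of selenoprotein synthesis and selenium supply were tested. *SEPSECS* and *PSTK*, which make selenocysteine on its transfer RNA, were lower in all HS than in all TN cows, as were 7.7% of all genes, with log2 FCs of -0.67 (SE 0.27, FDR = 0.504 by edgeR) and -1.003 (SE 0.55, FDR = 0.573). *SELENOP*, the selenium carrier that liver secretes, was named after its values were seen, and was at 1473 ± 853 CPM in TN, 3020.4 ± 1128 CPM in PF and 2070.3 ± 1064 CPM in HS cows, with overlap between all groups.

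Among 11 oxidases that form hydrogen peroxide, 9 had a log2 FC below 0 for HS against TN, with a median of -0.35, and 1 had an unadjusted p under 0.05, against 5.23% of all genes that were lower in HS. It was *HAO2*, a peroxisomal hydroxyacid oxidase, at 610, 573 and 854 CPM in TN, 312, 270.3 and 202 CPM in PF, and 350.1, 302 and 279 CPM in HS cows. Every TN cow was above every PF and every HS cow, as in 6.37% and 7.7% of all genes for the PF and the HS cows. The log2 FC was -1.15 for HS against TN (SE 0.33, FDR = 0.392 by edgeR and 0.00479 by DESeq2) and -1.38 for PF against TN (SE 0.35, FDR = 0.59 by edgeR and 0.00186 by DESeq2). *ACOX2*, the oxidase of branched fatty acids and bile acid intermediates, had a log2 FC of -0.74 for HS against TN (SE 0.33, FDR = 0.522 by edgeR). All HS cows were below all TN cows in *ACOX2*, as in 7.7% of all genes.

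Of 17 genes of peroxisome biogenesis, the organelle that holds catalase, 4 were higher and 1 was lower in HS than in TN at an unadjusted p under 0.05, against 4.13% and 5.23% of all genes, and 0 were called by DESeq2. *PEX11A*, which acts in peroxisome division, was at 2.63 ± 0.81 CPM in TN, 5.62 ± 0.46 CPM in PF and 5.77 ± 0.72 CPM in HS cows (log2 FC 1.12 for HS against TN, SE 0.37, FDR = 0.448 by edgeR). *PEX10* went the other way, with 157 ± 43.3, 93.7 ± 24.0 and 82.0 ± 21.4 CPM (log2 FC -0.96, SE 0.31, FDR = 0.434 by edgeR). In both genes the PF and HS cows were free of overlap with the TN cows. Of all genes, 8.37% were higher and 7.7% lower in all HS than in all TN cows. For PF against TN these shares were 6.81% and 6.37%.

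Of the NADPH oxidase subunits, *NOX1* had a log2 FC of -0.60 (SE 0.42, FDR = 0.64 by edgeR) for HS against TN, at a mean under 4 CPM in every group. Of 10 regulators, *FOXO3* and *HSF1*, transcription factors of the stress response, had log2 FCs of 0.51 (SE 0.21, FDR = 0.509 by edgeR) and 0.58 (SE 0.25, FDR = 0.52) for HS against TN. Each was higher in all HS than in all TN cows, as were 8.37% of all genes. *HSF1* was at 17.1, 16.1 and 17.6 CPM in TN, 18.4, 23.6 and 18.1 CPM in PF, and 22.3, 19.8 and 34.6 CPM in HS cows. All PF cows were thus also above all TN cows in *HSF1*, as in 6.81% of all genes. For HS against PF the log2 FC was 0.17 for *FOXO3* (SE 0.23) and 0.35 for *HSF1* (SE 0.26). *NFE2L2*, the main activator of antioxidant genes, was named after its values were seen. It was at 161 ± 9.42 CPM in TN, 121 ± 30.1 CPM in PF and 115 ± 18.0 CPM in HS cows (log2 FC -0.50 for HS against TN, SE 0.25, FDR = 0.541 by edgeR). It was lower in all HS than in all TN cows, as were 7.7% of all genes.

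The 13 mitochondrially encoded subunits of the respiratory chain, a main source of superoxide, all had log2 FCs below 0 in each of the 3 pairs, with medians of -1.45 for HS against TN, -0.47 for HS against PF and -0.90 for PF against TN. By DESeq2 13, 3 and 5 of them were DEGs, and 0 by edgeR, although 12, 3 and 8 had an unadjusted p under 0.05 (5.23%, 2.25% and 3.89% of all genes in that direction). *ND6* had a log2 FC of -1.99 (SE 0.42, FDR = 0.249 by edgeR) and *ND4L* one of -1.27 (SE 0.30, FDR = 0.28) for HS against TN. The nuclear genes of the mitochondrial enzymes *SOD2* and *PRDX3*, in contrast, had log2 FCs of 0.60 and 0.13 for this pair, and leaving the mitochondrial genes out of the library sizes changed no call on the 10 enzymes.

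**Figure D5:**
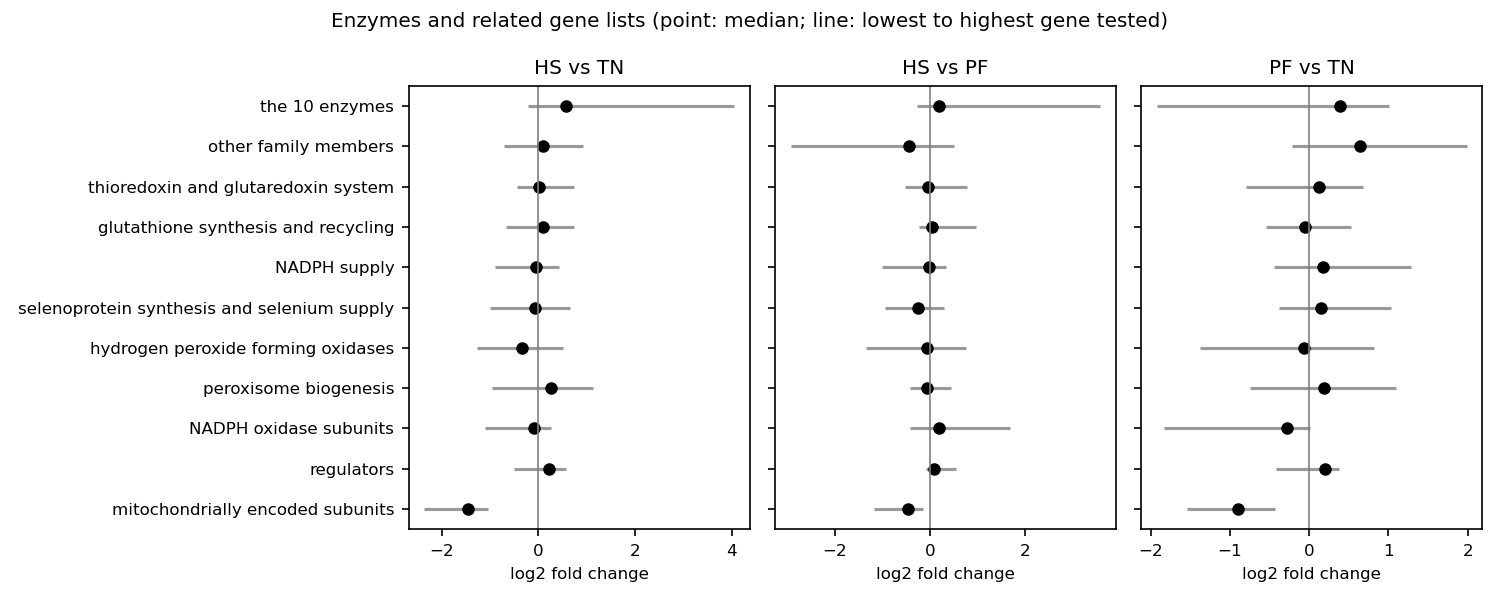
Median log2 fold change (point) and lowest to highest gene tested (line) of the 10 enzymes and of 10 related gene lists, for HS against TN, HS against PF and PF against TN. The mitochondrially encoded subunits are the only list below 0 in whole in all 3 pairs (medians -1.45, -0.47 and -0.90), and the enzymes have medians of 0.57, 0.20 and 0.39.

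Markers of other liver cells were read beside these values. For HS against PF, where *GPX3* and *SOD3* had the largest differences, 8 of 9 macrophage markers were higher in all HS than in all PF cows, as were 5.95% of all genes, with sums of 1986 to 3143 CPM in HS and 1458 to 2006 CPM in PF, and 0 of the 9 were DEGs by edgeR or DESeq2 although 7 had an unadjusted p under 0.05, all higher in HS (3.07% of all genes). For HS against TN, 3 of 9 macrophage markers were higher in all HS than in all TN cows, as were 8.37% of all genes. In this pair 0 macrophage and 0 neutrophil markers were DEGs by edgeR (0.0892% of all genes). DESeq2 called 1 of 9 and 2 of 5, all higher in HS, against 1.75% of all genes in either direction. The sum of the 5 neutrophil markers found among the genes counted (*S100A8*, *S100A9*, *S100A12*, *CXCR2* and *FCGR3A*) was 139 to 213 CPM in HS, 68.8 to 112 CPM in PF and 79.2 to 161 CPM in TN cows. *FCGR3A* alone was at 49.2 to 133 CPM over the 9 cows. HS cow 3 had the highest sum of both lists and the highest *SOD3*, but one of the lower levels of *GPX3*. The sum of 8 erythroid markers was 4.14 to 23.2 CPM in TN, above the 0.592 to 3.21 CPM in PF and the 0.874 to 2.51 CPM in HS cows, and of the 2 tested for HS against TN, 0 were DEGs by edgeR and 1 was by DESeq2, lower in HS. The 8 hepatocyte markers had a median log2 FC of 0.75 for HS against TN and 0.64 for PF against TN, with 0 DEGs by edgeR or DESeq2, beside the medians of 0.57 and 0.39 for the antioxidant enzymes. The part of these cell types in the results on the enzymes was not tested.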

How the data were processed

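The values analysed were the raw read counts per gene that the authors deposited for 9 liver libraries, with no normalization. Per the study's methods and the submitters' processing notes, reads were cleaned with fastp 0.23.2, aligned to ARS-UCD1.2 with STAR 2.7.9a and counted with featureCounts 2.0.3. The annotation release, strand setting and treatment of multi-mapped reads are not given in the sources used here. The reads carried no stated molecular identifiers.

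Pairs of groups were fitted separately, 6 libraries at a time, in edgeR 4.0.16 under R 4.3.3 (TMM, filterByExpr, quasi-likelihood F test, Benjamini-Hochberg over all genes tested), and all 9 libraries were fitted for the test of 3 groups. The study's tool, DESeq2 (here 1.42.0), was an alternative. Before taking log2, 0.5 was added to CPM, except in the ratios between enzymes. Named genes are the 10 enzymes, the 2 genes of each list with the smallest p for HS against TN and any called by edgeR, and the 2 genes nearest to 4 enzymes; others are marked as named after their values were seen. The enzymes, lists and tests were chosen with earlier results of these data known. The fits were tested on simulated counts. Other settings were RLE size factors, no filter on low counts, a minimum of 10 counts in each library, mitochondrial genes left out, 1 fit of all libraries, the replicate number as a block, each cow left out, and, chosen after seeing the data, CPM of the library total. Symbols of 24366 of the 28786 genes, all 10 enzymes included, matched the RefSeq annotation of ARS-UCD2.0, so no positions are given. Some results that the rule for named genes would include are not reported here.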

Additional observations from a re-analysis of the deposited data

How the results depend on the processing

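With 3 cows per group, the 95% interval of every enzyme in every pair spanned more than 1 log2 unit, which limits what could be detected. Without a filter on low counts, 1 enzyme was a DEG for HS against TN (*GPX3*), 2 for HS against PF (*SOD3* and *GPX3*), 1 for PF against TN (*SOD3*) and 2 in the test of 3 groups, in place of 0 each, while the calls over all genes went from 13, 4, 0 and 7 to 124 of 20483, 98 of 20495, 136 of 20273 and 212 of 21008. DESeq2 called 1 for PF against TN (*SOD3*). The cause of these differences was not tested. RLE size factors, at least 10 counts in every sample, mitochondrial genes left out and all 9 libraries in 1 fit changed no call on the enzymes. As CPM of the library total, a scale chosen after seeing the data, the number of enzymes without overlap was 2 higher for HS against TN (7.23% of all genes), 1 higher for HS against PF (5.41%), and 4 higher (5.55%) and 1 lower (6.94%) for PF against TN.

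Leaving out each cow in turn gave 0 to 1 enzymes called for HS against PF, where the 1 was *SOD3* without HS cow 1, and 0 for the other pairs and the test of 3 groups. Signs turned for some log2 fold changes: for HS against TN, *SOD3* ranged from -0.030 to 1.79, *CAT* from -0.33 to 0.34, *GPX4* from -0.33 to 0.080 and *PRDX3* from -0.23 to 0.43. For HS against PF, *GPX4* ranged from -0.053 to 0.63, *PRDX3* from -0.64 to 0.014 and *PRDX6* from -0.087 to 0.39. For PF against TN, *SOD2* ranged from -0.11 to 0.62, *GPX1* from -0.24 to 0.28 and *GPX3* from -0.998 to 1.13. The HS minus TN difference in log2 ratio ranged from -0.016 to 0.39 for *SOD2* to *SOD1* (0.24 with all cows), from -0.96 to -0.17 for *CAT* to *GPX1*, and from -1.20 to -0.59 for *PRDX3* to *PRDX6*, whose exact permutation p ranged from 0.00714 to 0.125.

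For cows with the same replicate number, the correlations of their deviations from the group means had mixed signs. They were 0.24, -0.18 and 0.14 for HS and TN, 0.04, -0.15 and -0.22 for HS and PF, and -0.03, 0.17 and -0.02 for PF and TN. These correlations cannot settle whether the numbers pair the cows, for example by matched feed. With the replicate number as a block, 0 enzymes were called in each pair and in the test of 3 groups, and all genes gave 33, 6, 1 and 7 calls in place of 13, 4, 0 and 7.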
